A study of Mus musculus with 24 samples.

Results

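The noise by time interaction with intact adrenals is the difference between what noise did to cochlear RNA at night and what it did by day, in mice that had kept their adrenal glands. It was taken from the 12 sham-operated libraries of a series of 24, as the night noise effect minus the day noise effect, each effect being noise exposure minus sham exposure on the log2 scale. A positive interaction means that noise raised an RNA more, or lowered it less, at night than by day. It was computed for all 16607 genes that passed a filter on low counts.

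The 12 libraries came from whole cochlea of CBA/Sca mice aged 12 weeks. No transgene or deletion is named, and every mouse of these groups had undergone the sham operation that served as control for adrenalectomy (ADX, removal of the adrenal glands). The day noise group heard a noise band between 6 and 12 kHz at ZT3, where ZT counts hours from lights-on, at a level of 100 dB SPL and for a duration of 1 h, and the night noise group heard the same noise at ZT15. The remaining pair of groups is labelled as sham noise of the day and of the night. Each of the 4 groups had 3 libraries, called a, b and c as in the labels. The series design places collection 2 h after the exposure, whereas the sample labels give ZT11 for the day groups and ZT23 for the night groups, and the sources do not settle which holds. Nothing in the labels ties the libraries to separate animals, so p-values measure only the spread between these libraries, which may be technical.

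Loud noise switches on immediate early genes in the cochlea as it does in other tissues. These genes need no new protein for their transcription: calcium, cAMP and MAP kinase signals act on factors already bound at their promoters, and their products (AP-1, EGR and NR4A transcription factors) then act on later genes. Feedback phosphatases, chemokines and cytokines follow. Glucocorticoid hormone from the adrenal cortex, which peaks around the start of the active phase (night, in mice), restrains many inflammatory genes through the glucocorticoid receptor, and the cochlea holds a circadian clock of its own.

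The libraries held 18894996 to 28670850 counts each. Defining transcripts of the cochlea were present in all 12: Coch, of spiral ligament fibrocytes, at 4020 to 5650 CPM (counts scaled to a common library size), Otos at 308 to 566 CPM, the outer hair cell motor Slc26a5 at 3.17 to 4.89 CPM and the neurofilament Nefl at 249 to 442 CPM. A pair of libraries stood apart, day sham exposure b and night noise b. Of 12 markers of cerebellum, a brain region next to the inner ear, 9 had their 2 highest values in these libraries (Cbln1, Cbln3, Gabra6, Zic1, Neurod1, Pcp2, Car8, Grm4 and Slc1a6), and the summed level of all 12 was 390 and 334 CPM there against 181 to 253 CPM in the other libraries. Both libraries enter the interaction with a positive sign, so part of the results is given with and without them. Where no value without them is given, the result includes them.

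No gene passed the test of the interaction. Of 16607 genes, 0 (0%) had an adjusted p below 0.05 by edgeR's quasi-likelihood test with Benjamini-Hochberg adjustment, and the lowest adjusted p was 0.192. At an unadjusted p below 0.05 there were 1213 genes (7.30%), of which 481 (2.90%) had the larger value at night and 732 (4.41%) the smaller. The DESeq2 Wald test called 20 genes, 10 in each direction, and limma voom with library weights called 9, of which 1 was positive. Of the 10 positive DESeq2 calls, Cbln3 and Grm4 are cerebellar markers, and their interactions went from 4.96 and 2.80 to 1.90 and 1.119 without the pair of libraries with cerebellar transcripts. The values of En2, Gabrd and Sez6l, called too, went from 6.59, 5.64 and 2.59 to 3.38, 2.84 and 0.855, and Cnpy1 no longer passed the filter. Between DESeq2 and limma voom 8 calls were shared: Gas1 on the positive side, and Nefh, Nefm, Map1a, Syt2, Map3k9, Lancl3 and Zfp804a on the negative side. The median standard error of an interaction was 0.15 on the log2 scale, and 0.522 at the ninetieth percentile of genes. The median interaction over all genes was 0.013, and 53.4% of genes were positive, which is the level against which the gene groups below are read.

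Noise itself changed few genes at this time. By day 41 genes passed the test (0.247% of those tested), of which 35 rose (0.211%), and at night 119 genes passed (0.717%), of which 111 rose (0.668%). The day count was 25 without day noise b, 27 without day noise c, and 27, 27 and 23 without day sham exposure a, b and c. The night count was 78 without night noise b. A gene past the threshold at night and not by day is not thereby shown to differ between them. Genes were therefore chosen by the mean of the day and night effects. In this balanced design that contrast is orthogonal to the interaction if the groups have equal spread, which was not tested. By it 140 genes rose (0.843%) and 22 fell (0.132%), in all 162 (0.975%). Leaving out the pair of libraries with cerebellar transcripts gave 100 that rose and 31 that fell.

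Most genes that rose with noise had the larger estimated effect at night. Of the 140, 111 had a positive interaction, or 79.3% beside 53.4% over all genes. Their median effect was 0.427 by day and 0.589 at night (log2), and their median interaction was 0.203. At an unadjusted p below 0.05, 40 of the 140 (28.6%) were positive and 2 (1.43%) negative, beside 2.90% and 4.41% over all genes. Without the pair of libraries with cerebellar transcripts these counts were 25 and 1. None of the 140 passed the adjusted threshold. The highest value, 2.52 in Ivl (involucrin, an epithelial envelope protein), had a 95% interval of -0.214 to 5.26. In the absence of that pair 109 of the 140 were positive, with a median of 0.185, and a set of 100 genes chosen again without them, 92 of them shared with the first, had 78 positive. Of the 22 genes that fell with noise, 14 were positive, with a median interaction of 0.0629, which means that 14 fell less at night (19 of 22 and 0.11 without the pair).

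A second set was chosen in libraries that the interaction does not use. In the 12 ADX libraries 356 genes rose with noise on the mean of day and night (2.14% of genes tested). In the sham-operated libraries 280 of these 356 (78.7%, beside 53.4% over all genes) had a positive interaction, with a median of 0.132. Without the pair of libraries with cerebellar transcripts 271 did. In the ADX libraries, where they were chosen, 98 of the 356 (27.5%, beside 50% over all genes) were positive, with a median of -0.107. For 238 of the 356 the mean noise effect in sham-operated mice did not pass. Of the 356, 118 also belonged to the 140 genes above, and 96 of these 118 were positive.

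**Figure D1:**
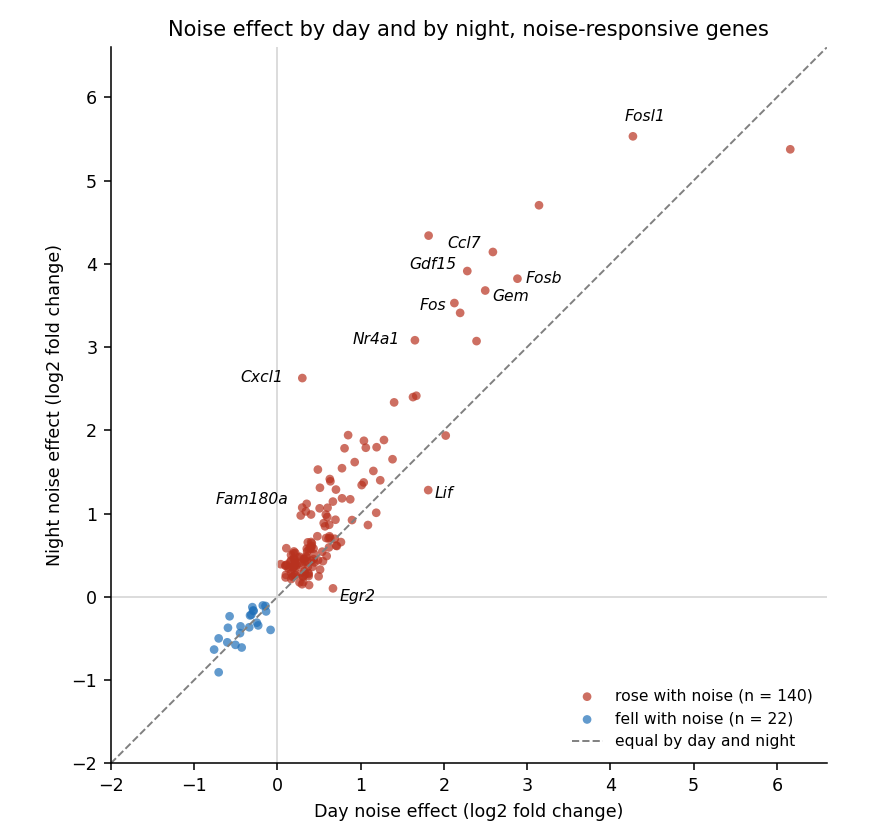
Night noise effect (y axis) against day noise effect (x axis), both as log2 fold change of noise over sham exposure in sham-operated mice, for the 140 genes that rose and the 22 that fell with noise on the mean of both times; each point is 1 gene and the dashed line marks equal effects. Of the rising genes 111 lie above the line, with Cxcl1 far from it, and Egr2 and Lif lie below.

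Genes of the immediate early response mostly had the larger estimated effect at night. Of 30 genes on the list, 29 were tested (Egr4 did not pass the filter), and 26 of the 29 had a positive interaction, with a median of 0.472. Without the pair of libraries with cerebellar transcripts 26 of 29 were again positive, with a median of 0.333, and with 1 library left out at a time the median ran from 0.341 to 0.616. At an unadjusted p below 0.05, 12 (41.4%) were positive and 1 (3.45%) negative, beside 2.90% and 4.41% over all genes. Without the pair these counts were 5 and 1. On the mean of day and night 20 of the 29 rose with noise and 0 fell, beside 0.843% and 0.132% over all genes.

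Fos (chr12:85473890-85477273, plus strand, GRCm38), a partner in the AP-1 dimer, was at 7.78, 12.8 and 9.48 CPM in the day sham exposure libraries a, b and c, and at 24.8, 65.9 and 41.9 CPM after day noise. After dark it was at 6.76, 8.54 and 9.63 CPM after sham exposure and at 122, 115 and 51.1 CPM after noise. Noise and sham libraries did not overlap at either time, the night noise and day noise libraries did, and night noise c was the lowest of its group. The log2 effect was 2.13 by day and 3.53 at night, an interaction of 1.40 (SE 0.591, 95% interval 0.164 to 2.64, adjusted p = 0.602, edgeR), and 1.04 without the pair of libraries with cerebellar transcripts.

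Nr4a1 (chr15:101254269-101274795, plus strand), an orphan nuclear receptor, was at 29.8, 34.4 and 27.3 CPM after day sham exposure and at 58.2, 151 and 79.5 CPM after day noise. At night the sham exposure libraries were lower, at 19.4, 23.5 and 21.7 CPM, and the noise libraries were at 208, 215 and 123 CPM. Night noise c lay below day noise b, so the noise groups overlapped, whereas all 3 night sham exposure libraries lay below all 3 of the day. The interaction was 1.43 (SE 0.523, adjusted p = 0.477).

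Dusp1 (chr17:26505590-26562128, minus strand), a phosphatase that switches MAP kinases off and a gene that glucocorticoids also induce, was at 58.2, 51.5 and 56.4 CPM after day sham exposure and at 69.5, 126 and 95.1 CPM after day noise. It was at 50.0, 51.2 and 44.4 CPM after night sham exposure and at 199, 171 and 131 CPM after night noise. All 3 night noise libraries lay above all 3 day noise libraries. The effect was 0.807 by day and 1.78 at night, an interaction of 0.977 (SE 0.318, 95% interval 0.312 to 1.64, adjusted p = 0.418), with 1.02 in the absence of the pair of libraries with cerebellar transcripts.

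The promoters of these 3 genes are shown because cAMP and calcium signals reach them through the cAMP response element (CRE). Each line gives the 250 bases before the RefSeq transcription start (GRCm38.p6), 5′ to 3′ on the gene's strand. Capitals mark the CRE half-site TGACG, or CGTCA where it lies on the opposite strand, and the joined full site TGACGTCA in Dusp1.
Fos, chr12:85473640-85473889, plus strand: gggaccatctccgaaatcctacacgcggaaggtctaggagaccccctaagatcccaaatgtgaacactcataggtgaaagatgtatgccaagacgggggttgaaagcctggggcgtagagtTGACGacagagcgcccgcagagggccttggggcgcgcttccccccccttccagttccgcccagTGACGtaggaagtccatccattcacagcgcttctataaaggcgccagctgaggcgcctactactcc
Nr4a1, chr15:101266596-101266845, plus strand: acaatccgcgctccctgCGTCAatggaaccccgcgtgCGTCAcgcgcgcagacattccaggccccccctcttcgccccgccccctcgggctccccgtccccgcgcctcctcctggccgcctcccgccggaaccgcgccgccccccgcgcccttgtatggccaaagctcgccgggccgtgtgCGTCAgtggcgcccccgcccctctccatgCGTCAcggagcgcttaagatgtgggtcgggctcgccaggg
Dusp1, chr17:26508473-26508722, minus strand: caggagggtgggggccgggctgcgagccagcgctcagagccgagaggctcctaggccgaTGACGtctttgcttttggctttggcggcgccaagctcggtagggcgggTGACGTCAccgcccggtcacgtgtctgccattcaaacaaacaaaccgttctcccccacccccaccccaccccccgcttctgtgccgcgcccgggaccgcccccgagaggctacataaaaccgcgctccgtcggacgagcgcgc

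The window of Fos held 2 half-sites, that of Nr4a1 held 4, and that of Dusp1 held 3 matches, 2 of which are the overlapping parts of its full site. Searched on both strands, the half-site was in 17.8% of all 32851 windows of the RefSeq table and in 24.1% of the 15309 windows of genes tested here. It was in 58.6% of the 29 windows of immediate early genes and in 37.3% of the 134 windows of genes that rose with noise, of which 102 of 140 were matched. Split by the interaction, it was in 36.2% of 105 windows of rising genes with the larger night effect and in 41.4% of 29 windows of those with the smaller. The AP-1 site TGACTCA was in 6.67% of windows of rising genes with the larger night effect and 6.9% of those with the smaller, beside 3.49% of windows of genes tested. In the same order the full CRE was in 4.76% and 10.3% of windows, beside 2.35% of windows of genes tested. The E-box CACGTG was in 12.4% and 17.2%, beside 7.69%. The CArG box, bound by serum response factor, was in 2.86% and 17.2%, beside 1.21%. Among genes with the smaller night effect these were 3, 5 and 5 windows, the last of 2 genes. These are matches of letters in a fixed window and not measured binding.

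The other factors of the list had wide intervals. Fosb, Fosl1 and Nr4a3, which are barely expressed without noise, had interactions of 0.938, 1.26 and 1.22 with 95% intervals that spanned 0 (-0.661 to 2.54, -0.643 to 3.16 and -0.273 to 2.70). Nr4a3 was at 0.249 without the pair of libraries with cerebellar transcripts, in 1 of which, day sham exposure b, it stood at 2.42 CPM against 0.788 and 0.709 CPM in the others of its group. Egr1, a zinc finger factor, rose by 1.40 by day and 2.34 at night (interaction 0.933, 95% interval -0.0155 to 1.88). Atf3 and Maff, both of the bZIP family, had interactions of 0.77 (SE 0.368) and 0.746 (SE 0.295), and Cyr61, a matricellular gene, of 0.728 (SE 0.287).

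Nab2 (chr10:127660918-127668568, minus strand), a corepressor that binds EGR proteins and limits their activity, had the lowest unadjusted p of the list. It was at 37.7, 32.9 and 37.4 CPM after day sham exposure, 51.2, 55.7 and 64.6 CPM after day noise, 30.9, 33.6 and 32.7 CPM after night sham exposure and 73.3, 72.6 and 68.9 CPM after night noise. The sham exposure groups overlapped, the day noise libraries were above all of them, and the night noise libraries were all above the day noise ones. The interaction was 0.477 (SE 0.134, 95% interval 0.199 to 0.754, adjusted p = 0.348, edgeR), and 0.536 without the pair of libraries with cerebellar transcripts.

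Egr2, Egr3 and Npas4 were the 3 members of the list with negative values. Egr2, the EGR factor of myelinating Schwann cells, rose by day from 20.8, 20.6 and 20.5 CPM to 37.5, 31.5 and 29.1 CPM. At night it was at 19.3, 26.9 and 24.7 CPM after sham exposure and at 25.7, 27.4 and 22.9 CPM after noise, and these groups overlapped. Its effect was 0.668 by day (adjusted p = 0.0103) and 0.101 at night (adjusted p = 0.915), an interaction of -0.566 (SE 0.168, adjusted p = 0.382). Egr3 had an interaction of -0.224 and Npas4, a factor of active neurons, of -0.0247, with standard errors of 0.287 and 0.222.

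**Figure D2:**
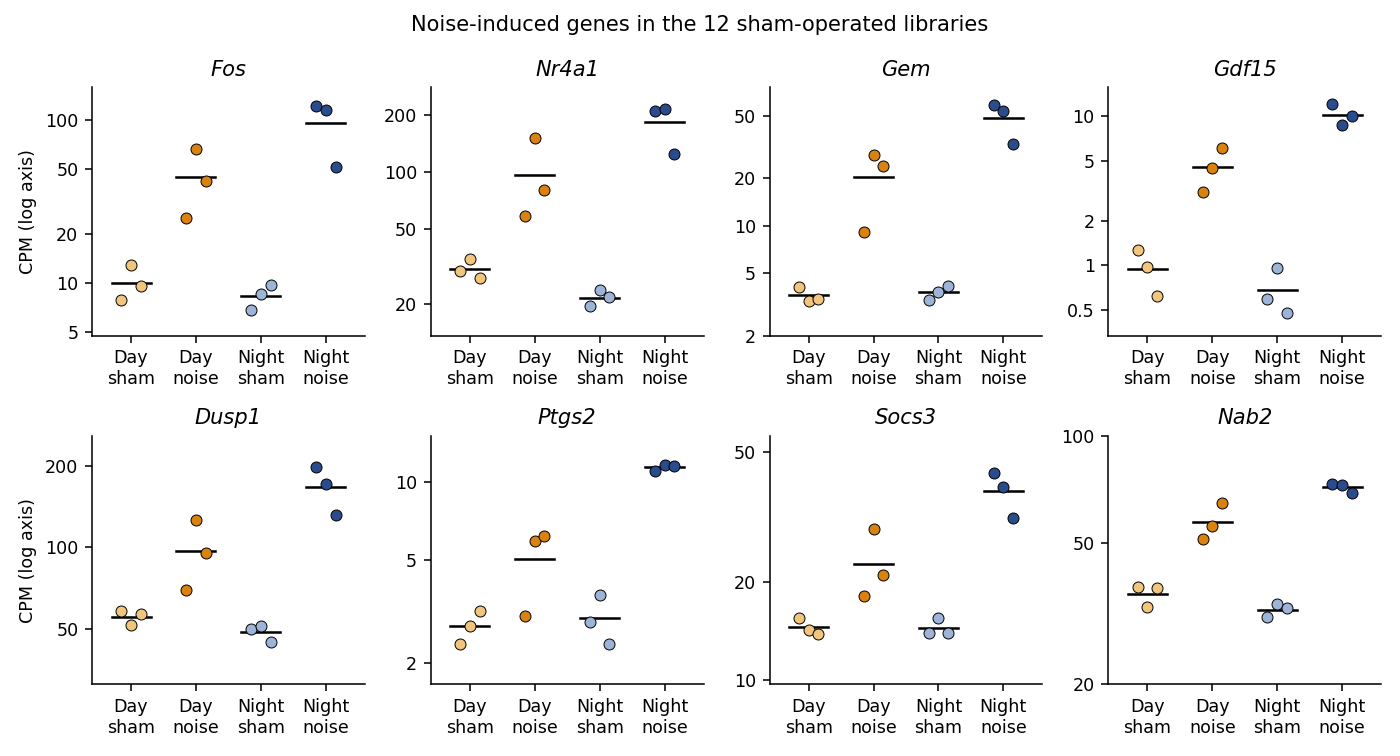
Level of 8 noise-induced genes in each of the 12 sham-operated libraries, in CPM on a log axis; points from left to right within a group are libraries a, b and c, and the bar is the group's mean. Day noise a is the lowest day noise library for all 8 genes, and night noise is highest on the mean for all 8.

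Single libraries moved together across these genes. Day noise a was the lowest of its group for Fos, Nr4a1, Gem, Gdf15, Dusp1, Ptgs2, Socs3 and Nab2, and the summed level of the immediate early list was 1250, 1730 and 1480 CPM in day noise a, b and c. In night noise a, b and c the sum was 2310, 2280 and 1630 CPM, and in the 6 sham exposure libraries it lay between 981 and 1030 CPM. Without day noise a, 105 of the 140 rising genes had a positive interaction, with a median of 0.143, and without night noise c 107 had one, with a median of 0.248. Over all 12 libraries left out in turn the count ran from 105 to 116.

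Feedback regulators of MAP kinase signalling went the same way in part. Of 15 genes on that list 11 were positive, with a median of 0.196 that fell to 0.0695 without the pair of libraries with cerebellar transcripts. Dusp5, a nuclear phosphatase of ERK, rose by 0.487 by day and 1.53 at night (interaction 1.04, SE 0.295, adjusted p = 0.348), and had 0.648 without those libraries. Gem, a small GTPase induced by calcium and cAMP, was at 9.09, 28.2 and 23.96 CPM after day noise and at 58.3, 53.8 and 32.8 CPM after night noise, against 3.30 to 4.15 CPM in all 6 sham exposure libraries. Its interaction was 1.18 (SE 0.503, adjusted p = 0.603). Of 15 cAMP and CREB target genes tested, a list that shares Fos, Nr4a1, Nr4a3, Dusp1 and Gem with the accounts above, 13 were positive with a median of 0.406 (0.249 without the pair).

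Secreted signals were led by Gdf15 and Cxcl1. Gdf15 (chr8:70629393-70632456, minus strand), a stress-induced cytokine of the TGF-beta family, was at 1.26, 0.969 and 0.62 CPM after day sham exposure and 3.12, 4.49 and 6.18 CPM after day noise. At night it was at 0.598, 0.966 and 0.481 CPM after sham exposure and 12.1, 8.72 and 10.05 CPM after noise, above every day noise library. The interaction was 1.63 (SE 0.464, 95% interval 0.668 to 2.60, adjusted p = 0.348).

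Cxcl1 (chr5:90891241-90893115, plus strand), a chemokine that draws neutrophils, had the largest interaction of the 32 fixed genes, 2.33 (SE 0.66, 95% interval 0.955 to 3.70, adjusted p = 0.348), at levels under 1 CPM. It was at 0.42, 0.264 and 0.399 CPM after day sham exposure and 0.325, 0.619 and 0.406 CPM after day noise, which overlapped. At night it went from 0.106, 0.116 and 0.148 CPM to 0.876, 0.697 and 0.779 CPM. The night sham exposure libraries were thus below the day ones, and both ends contributed to the difference.

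Other cytokine genes were less clear. Ccl7 and Ccl2, chemokines for monocytes, had interactions of 1.55 (95% interval 0.00432 to 3.10) and 0.679 (95% interval -0.521 to 1.88), and Cxcl10, an interferon-induced chemokine, of 1.64 (SE 0.757). Lif, a cytokine of the IL-6 family, went the other way: 2.43, 3.25 and 4.06 CPM after day noise from 0.998, 0.749 and 1.02 CPM, and 4.67, 4.14 and 3.51 CPM after night noise from 1.51, 1.62 and 1.93 CPM. Its effect was 1.81 by day and 1.28 at night (interaction -0.53, SE 0.347, adjusted p = 0.827), and its night sham exposure libraries were all above the day ones. Of 19 chemokine and cytokine genes tested, 14 were positive, with a median of 0.183 (0.187 without the pair of libraries with cerebellar transcripts). Values of the list ran from -1.33, below that of Lif, to 2.33. At an unadjusted p below 0.05, 6 (31.6%) were positive and 1 (5.26%), not Lif, negative, beside 2.90% and 4.41% over all genes. Without the pair these counts were 3 and 1.

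Inflammatory signalling genes were also mostly positive. Ptgs2, the inducible cyclooxygenase, was at 3.04, 5.93 and 6.18 CPM after day noise and at 11.1, 11.6 and 11.6 CPM after night noise, with 2.36 to 3.67 CPM in the sham exposure libraries. Its interaction was 1.09 (SE 0.329, adjusted p = 0.382). Socs3, which shuts off cytokine receptors that signal through STAT3, was at 18.1, 28.9 and 21.0 CPM after day noise and 43.0, 39.0 and 31.4 CPM after night noise, an interaction of 0.75 (SE 0.224, adjusted p = 0.382). In both genes every night noise library was above every day noise library. Of 20 NF-kB and acute-phase genes tested 17 were positive, with a median of 0.231 (0.221 without the pair, 0.123 without day noise c). Most of this list did not pass the test of the mean noise effect, which does not show that noise left it unchanged. On the mean of day and night 4 of the 20 rose, beside 0.843% of all genes, and 16 did not pass. The list's median effect was 0.0471 by day and 0.239 at night.

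For several genes that changed with noise the 95% interval of the interaction spanned 0. Srxn1, sulfiredoxin, an enzyme that repairs oxidised peroxiredoxin, rose from 51.0 ± 1.93 to 83.8 ± 5.32 CPM by day and from 59.4 ± 3.11 to 90.6 ± 3.70 CPM at night (mean ± SD, n = 3 libraries). Its interaction was -0.104 (95% interval -0.35 to 0.143), and it passed the test at each time (adjusted p = 0.000136 and 0.000192). Pdk4, a kinase that restrains pyruvate oxidation, had 0.0253 (95% interval -0.372 to 0.422). Sgk1, a kinase induced by glucocorticoids, had 0.228 (95% interval -0.13 to 0.586), slightly above the median of 0.203 of the 140 rising genes. Among genes that fell, Ankrd23 had effects of -0.76 by day and -0.634 at night (interaction 0.126, 95% interval -0.165 to 0.418), Rab17 of -0.705 and -0.906 (-0.202, 95% interval -0.617 to 0.214) and Klhdc7a of -0.504 and -0.577 (-0.073, 95% interval -0.464 to 0.318). Of 13 oxidative stress response genes 9 were positive, with a median of 0.0259. Hmox1, which degrades heme, had the lowest unadjusted p among them, at an interaction of 0.586 (SE 0.224, adjusted p = 0.512).

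**Figure D3:**
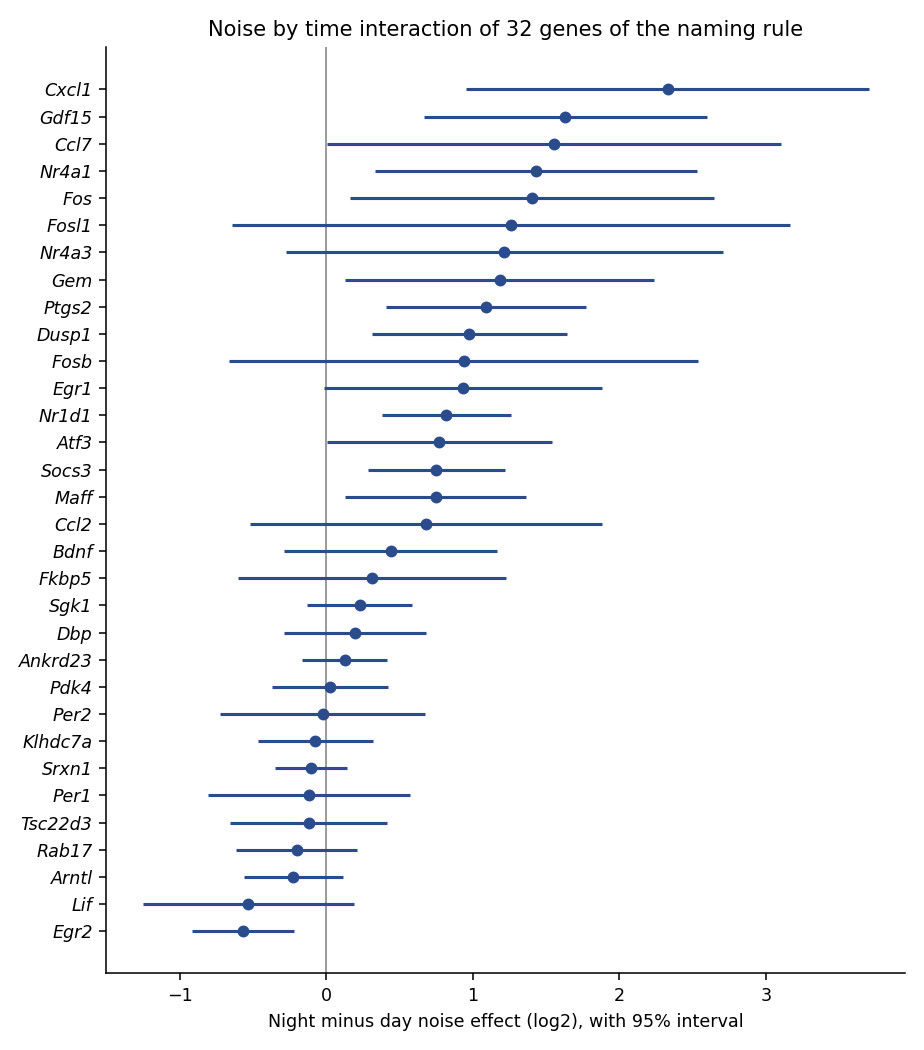
Interaction (night minus day noise effect, log2, x axis) of 32 genes named by rule, in order of size; points are estimates and lines 95% intervals from the quasi-likelihood fit. Cxcl1 at 2.33 and Gdf15 at 1.63 are the highest, Egr2 at -0.566 is the lowest, and Pdk4, Per2, Klhdc7a and Srxn1 lie near 0.

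The lowest unadjusted p-values of all belonged to genes of other kinds, and Gas1, Map3k9, Fam180a and Nefh shared the lowest adjusted p of 0.192. Gas1 (chr13:60174405-60177365, minus strand), a membrane protein that acts as a coreceptor for Hedgehog ligands, was at 84.7, 69.1 and 78.7 CPM after day sham exposure and 66.7, 68.3 and 72.8 CPM after day noise, which overlapped. At night it was at 67.2, 71.8 and 71.0 CPM after sham exposure and at 99.2, 93.0 and 98.9 CPM after noise, above all 9 other libraries. Its effect was -0.161 by day and 0.471 at night (adjusted p = 0.619 and 0.00201), an interaction of 0.632 (SE 0.113, 95% interval 0.397 to 0.867). DESeq2 gave an adjusted p of 0.00248 and limma voom 0.0278.

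Fam180a, a gene of unknown function, was at 11.2, 10.04 and 12.3 CPM after day sham exposure, 11.9, 14.4 and 16.6 CPM after day noise, 10.4, 11.4 and 11.4 CPM after night sham exposure and 26.3, 22.8 and 22.9 CPM after night noise. The night noise libraries were again above the 9 others. Its interaction was 0.765 (SE 0.149), and 0.882 without the pair of libraries with cerebellar transcripts. Fzd7, a Wnt receptor, had effects of -0.039 by day and 0.388 at night, an interaction of 0.427 (SE 0.0962, adjusted p = 0.305). Map3k9, a kinase upstream of JNK, moved in opposite directions, from 58.7 ± 1.14 to 67.7 ± 1.64 CPM by day and from 74.2 ± 7.60 to 59.9 ± 1.78 CPM at night, an interaction of -0.516 (SE 0.0967).

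Markers of spiral ganglion neurons mostly had negative interactions. Spiral ganglion neurons carry the signal of the hair cells to the brain, and their long axons are filled with neurofilament. Of 12 markers of these neurons 11 had a negative interaction, with a median of -0.623: their median effect was 0.375 by day and -0.246 at night. At an unadjusted p below 0.05, 9 of the 12 (75%) were negative and 0 positive, beside 4.41% and 2.90% over all genes, and none passed the adjusted threshold (lowest adjusted p 0.192). Without the pair of libraries with cerebellar transcripts 12 of 12 were negative, with a median of -0.667, and with 1 library left out at a time the median ran from -0.725 to -0.547.

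Nefh (chr11:4938754-4948064, minus strand), the heavy neurofilament chain, was at 627, 526 and 477 CPM after day sham exposure and 700, 663 and 759 CPM after day noise. After night sham exposure it was at 677, 761 and 769 CPM and after night noise at 569, 560 and 583 CPM. The noise libraries were above all sham ones by day and below all of them at night. Its interaction was -0.746 (SE 0.146, 95% interval -1.05 to -0.442), with adjusted p-values of 0.192 by edgeR, 0.00277 by DESeq2 and 0.0278 by limma voom.

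Nefm, the medium chain, was at 460, 388 and 329 CPM after day sham exposure and at 571, 571 and 579 CPM after day noise, and at 485, 609 and 568 CPM after night sham exposure and 425, 444 and 488 CPM after night noise, where the groups overlapped by 1 library. Its interaction was -0.841 (SE 0.176, adjusted p = 0.301). Nefl, the light chain, had -0.695 (SE 0.176, adjusted p = 0.348). In the GENCODE annotation Nefm (chr14:68082590-68124846, minus strand) overlaps Nefl (chr14:68083863-68089095, plus strand), and since the strand setting of the counting is not given in the sources used here, reads of these 2 genes may not be separate. Syt2, a calcium sensor of fast synapses, had -0.838 (SE 0.195) and, outside the list, Map1a, a microtubule-associated protein, had -0.771 (SE 0.172).

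Snap25, of the synaptic vesicle fusion machinery, had an interaction of -0.627 (SE 0.172) and Tubb3, the neuronal tubulin, of -0.618 (SE 0.16). The 3 members that did not reach an unadjusted p of 0.05 were Slc17a7, the vesicular glutamate transporter, at -0.407 (SE 0.214), Gata3 at -0.199 (SE 0.152) and Prph, peripherin, at 0.268 (SE 1.23). Prph ran from 1.97 to 18.4 CPM within the night noise group alone.

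The sum of the 12 neuron markers shows where the difference lay. It was 2810, 2450 and 2150 CPM after day sham exposure and 3110, 3080 and 3390 CPM after day noise. At night it was 2980, 3540 and 3470 CPM after sham exposure and 2720, 2700 and 2790 CPM after noise. The night sham exposure libraries were all above the day sham exposure ones, and the night noise libraries all below the day noise ones, so that the 4 groups crossed. In bulk tissue fewer neurons in the dissected sample and less RNA per neuron cannot be told apart. Over all genes, 94 (0.566%) had every noise library above every sham exposure library by day and below at night, and 2 of the 12 neuron markers were among them; the reverse pattern was in 33 genes (0.199%), none of them of this list.

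**Figure D4:**
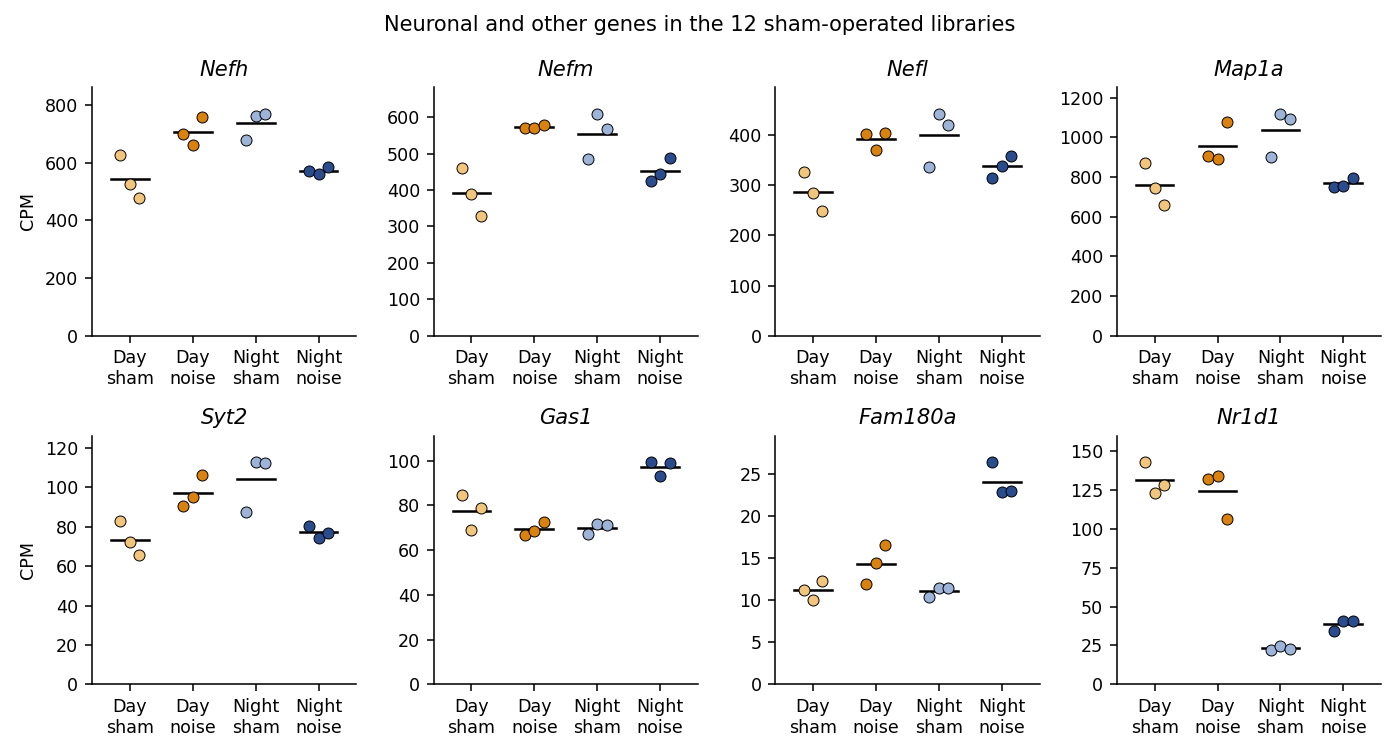
Level of 8 genes in each of the 12 sham-operated libraries, in CPM on axes that start at 0; points from left to right within a group are libraries a, b and c, and the bar is the group's mean. The neurofilament genes, Map1a and Syt2 are low after day sham exposure and night noise and high in the other pair of groups, Gas1 and Fam180a are high after night noise, and Nr1d1 is low at night.

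Among the clock genes 1 had an interaction with an unadjusted p below 0.05. It was 1 of the 13 high at dusk (7.69%), with 0 of the 6 high at dawn, beside 7.30% over all genes. Nr1d1 (chr11:98767932-98775333, minus strand), the repressor REV-ERB alpha, was at 143, 123 and 129 CPM after day sham exposure and 132, 134 and 106 CPM after day noise, which overlapped. At night it was at 22.0, 25.0 and 22.7 CPM after sham exposure and at 34.3, 41.0 and 41.0 CPM after noise, which did not. Its effect was -0.0823 by day (adjusted p = 0.937) and 0.737 at night (adjusted p = 0.0204), an interaction of 0.819 (SE 0.21, 95% interval 0.382 to 1.26, adjusted p = 0.348). The interactions of Per1, Per2, Dbp and Arntl were -0.114, -0.0237, 0.195 and -0.223, each with a 95% interval that spanned 0. Of the 13 clock genes high at dusk 8 were positive, with a median of 0.0374, and of the 6 high at dawn 2 were, with a median of -0.0863.

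Of 22 genes induced by glucocorticoids, 14 were positive (63.6%), with a median of 0.0842, and 4 (18.2%) were positive at an unadjusted p below 0.05, beside 53.4% and 2.90% over all genes. Dusp1, Sgk1, Pdk4 and Per1, given above, belong to this list. Fkbp5, a chaperone that binds the glucocorticoid receptor, ranged from 41.7 to 85.0 CPM within the day noise group and from 85.0 to 132 CPM within the night noise group, and its interaction of 0.315 had a 95% interval of -0.599 to 1.23. Tsc22d3, which encodes GILZ, had -0.119 (95% interval -0.654 to 0.415). Mt1, a metallothionein, stayed at 66.8 to 71.6 CPM in all 6 day libraries and was at 74.7, 82.8 and 77.4 CPM after night sham exposure and 97.3, 109 and 122 CPM after night noise, an interaction of 0.491 (SE 0.175, adjusted p = 0.452).

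Neurotrophins and their receptors showed no common direction. Of 12 genes 7 were positive, with a median of 0.0551. Ngfr, the low-affinity neurotrophin receptor of neurons and glia, had -0.563 (SE 0.176, adjusted p = 0.382). Bdnf, a trophic factor for auditory neurons, was at 2.01 to 5.25 CPM in the day libraries and 3.37 to 4.87 CPM in the night libraries, with an interaction of 0.442 (95% interval -0.284 to 1.17).

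Markers of other cells of the cochlea had medians nearer 0 than the neuron list. With all 12 libraries the median interaction was -0.0705 for 12 hair cell markers, 0.017 for 10 supporting cell markers, -0.0712 for 12 glia and myelin markers, -0.0302 for 10 stria vascularis markers, 0.0115 for 8 spiral ligament fibrocyte markers and 0.0803 for 10 bone markers. Without the pair of libraries with cerebellar transcripts these medians were 0.0271, 0.118, -0.103, 0.121, 0.183 and 0.132, so that those of the hair cell and stria vascularis markers changed sign. There 9 of 10 stria vascularis markers and 7 of 8 fibrocyte markers were positive, beside 4 of 10 and 4 of 8 with all libraries. The summed hair cell markers lay between 251 and 335 CPM in every library. Macrophage markers had a median of 0.214, with 8 of 10 positive, and neutrophil and myeloid marrow markers of 0.13, with 10 of 10 positive and 0 of 10 at an unadjusted p below 0.05. Their summed levels overlapped between all 4 groups: 617 to 838 CPM after day noise, 727 to 851 CPM after night noise, 726 to 819 CPM after day sham exposure and 627 to 773 CPM after night sham exposure for the macrophage list. Of the remaining lists, interferon-stimulated genes had 14 of 16 positive (median 0.173), ATF4 and unfolded protein response genes 8 of 10 (median 0.194), injury and repair genes 15 of 21 (median 0.115), endothelial markers 6 of 8 (median 0.14), lymphoid markers 4 of 12 (median -0.0139) and erythroid markers 7 of 7 tested (median 0.172). At an unadjusted p below 0.05, 1 interferon-stimulated gene (6.25%) and 2 ATF4 list genes (20%) were positive, beside 2.90% over all genes. On the mean of day and night 14 of the 21 injury and repair genes rose with noise. In the interferon, ATF4, endothelial, lymphoid and erythroid lists 0 did, beside 0.843% of all genes. The part of macrophages and other marked cells in the values of cytokine genes was not tested.

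Further lists changed with the pair of libraries that stood apart. The 12 cerebellar markers were all positive, with a median of 2.35 that fell to 0.56 without the pair. The 12 skeletal muscle markers had a median of 1.65 with the pair and -1.64 without it. Of 13 heat-shock and chaperone genes 12 were positive with the pair and 4 without it, and the median went from 0.153 to -0.0335. For the neurotrophin list it went from 0.0551 to -0.0092. The 4 pituitary markers tested, of 8, had a median of -3.14, and their sum was 48 CPM in day noise b and 2.48 to 17.4 CPM in the other libraries. Chn2, which DESeq2 called, was highest in day sham exposure b and night noise b of their groups (24.9 and 27.5 CPM), and its interaction of 1.22 was 0.745 without them.

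**Figure D5:**
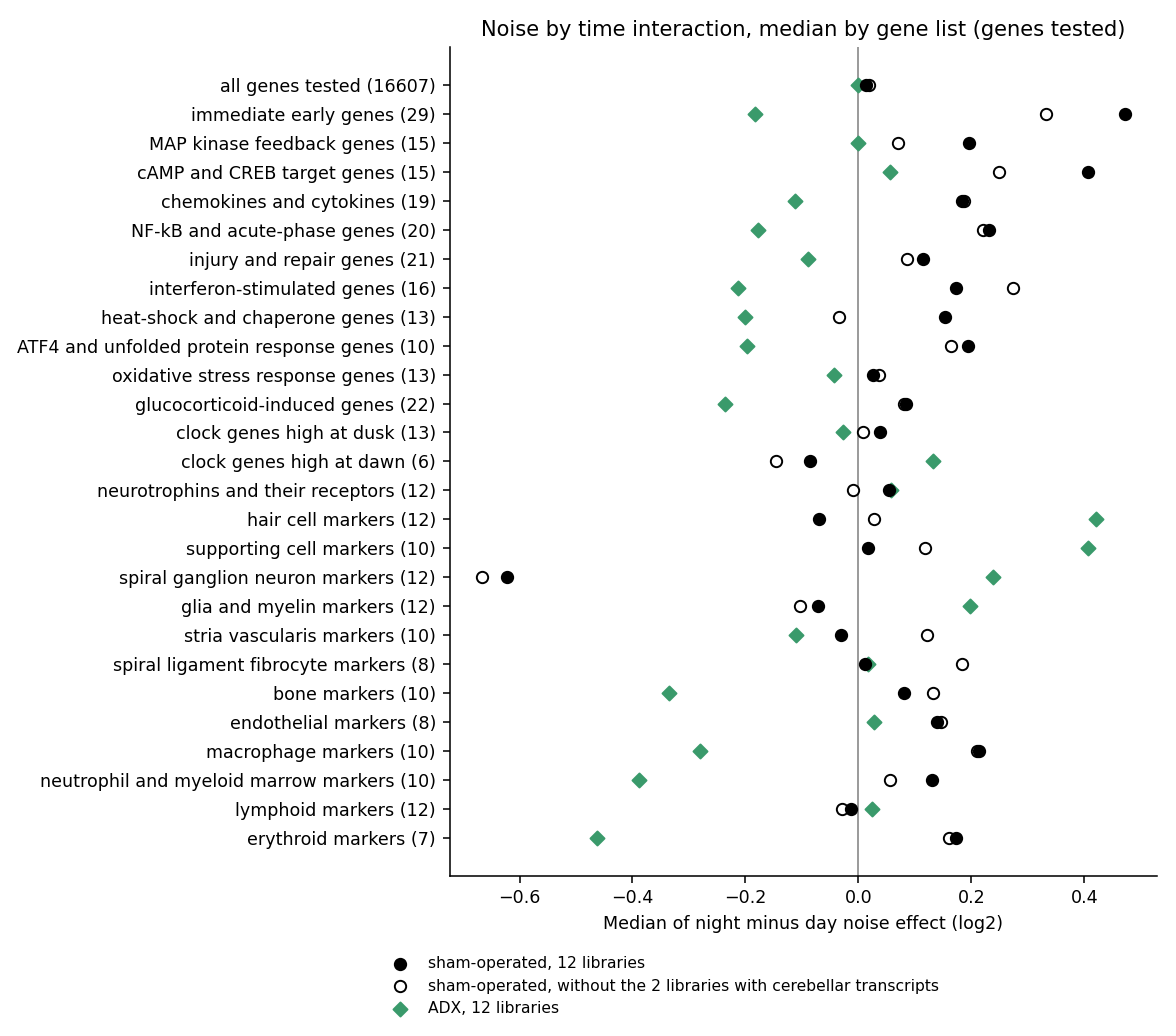
Median interaction (log2, x axis) of 26 gene lists and of all genes tested, with the number of genes in parentheses; filled circles are the 12 sham-operated libraries, open circles the same without day sham exposure b and night noise b, and diamonds the 12 ADX libraries. The cerebellar, muscle and pituitary lists, with medians beyond the axis, are left out. The medians other than that of the spiral ganglion neuron markers lie between -0.0863 and 0.472 with all 12 libraries.

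The same contrast in ADX mice gives the comparison for intact adrenals. The ADX groups had the same strain, age, noise and times, and no library in common with the sham-operated ones. There, 1 gene passed (0.00602% of genes tested), Khdrbs3. The difference of the interactions, sham-operated minus ADX, was past the threshold for 0 of 16607 genes (0%) by edgeR, and at an unadjusted p below 0.05 for 2162 (13.0%). DESeq2 called 197, of which 172 were negative, and limma voom 574, of which 496 were negative. By edgeR the count was 554 when day noise ADX a was left out. It was 124 without the sham-operated library a of night sham exposure and 1 without night noise ADX c. The count thus changed with the test used and with single libraries.

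Several lists had an ADX median on the other side of 0. Of the 29 immediate early genes tested, 5 were positive in ADX, with a median of -0.183 beside 0.472 in sham-operated mice. Of the 140 rising genes, 40 were positive in ADX, with a median of -0.0891 beside 0.203, and 50% of all genes were positive there. The cAMP and CREB target genes stayed on the same side, with 8 of 15 positive and a median of 0.056 beside 0.406. Of the 12 spiral ganglion neuron markers 10 were positive in ADX, with a median of 0.239 beside -0.623.

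Markers of many cell types also moved in the ADX contrast. Medians there were 0.421 for hair cell markers (11 of 12 positive), 0.407 for supporting cell markers (8 of 10) and 0.197 for glia and myelin markers (11 of 12). They were -0.28 for macrophage markers, -0.388 for neutrophil and myeloid marrow markers and -0.463 for erythroid markers, with 0 of 10, 0 of 10 and 0 of 7 positive. The part of these cells in the ADX values was not tested. In the library night noise ADX a the summed pituitary markers tested stood at 9690 CPM, and in the other 11 ADX libraries at 2.55 to 135 CPM. Without it the ADX median was -0.322 for the immediate early genes (2 of 29 positive), -0.115 for the rising genes (39 of 140), 0.286 for the neuron markers (11 of 12) and -0.205 for the cAMP and CREB target genes (5 of 15), which then lay on the other side of 0 from the sham-operated value. List medians without day noise ADX a, whose absence changed the count of differing genes most, were not computed.

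For single genes the difference between sham-operated and ADX was 1.31 for Fos (adjusted p = 0.519), 1.75 for Gdf15 (adjusted p = 0.277), 0.659 for Nab2 (adjusted p = 0.162), 0.935 for Socs3 (adjusted p = 0.223), -0.933 for Nefh and -1.11 for Nefm (adjusted p = 0.128 for both). For Nr1d1 it was 1.58, from 0.819 in sham-operated and -0.763 in ADX mice (adjusted p = 0.128). For Map3k9 it was -0.784 (adjusted p = 0.0973). None of these differences passed the threshold. Gas1 and Fam180a had the same sign in ADX mice, at 0.251 and 0.551.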

How the data were processed

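The authors deposited raw counts of reads per gene symbol for 24 libraries, made from 300 ng of total RNA with a stranded poly-A kit and read as 50-base single reads, per the labels' protocols. Per the submitters' processing notes the build was mm10 and the tools included HTSeq 0.6p1 and TopHat2 2.0.11. Annotation and strand setting are not given in the sources used here. Of 23420 entries, 27 had names turned into dates (0.214% of counts) and were kept unidentified.

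The model had 1 coefficient per group over all 24 libraries (R 4.3.3, edgeR 4.0.16, filterByExpr on the 8 groups, TMM, robust quasi-likelihood F-tests, two-sided), with Benjamini-Hochberg adjustment over 16607 genes at a threshold of 0.05. The spread is thus shared with the ADX libraries. CPM are TMM-scaled, and intervals are 95% intervals of the fit. Alternatives were RLE factors, DESeq2 1.42.0, limma 3.58.1 voom with library weights, no filter, only the libraries compared, a replicate block, each library left out, and 2 libraries with cerebellar transcripts left out. The use of the mean noise effect to choose rising genes, their choice in ADX libraries or without those 2 libraries, their count under each alternative, and ADX list medians without night noise ADX a were added after seeing the data. The script was tested on simulated data. No library repeated another, by chi-square tests within groups. Positions are from GENCODE vM21.

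The members, 29 gene lists and tests were chosen with earlier results of these data known. Genes were named by rule: up to 10 per direction by lowest unadjusted p among genes averaging 0 or more in log2 CPM, leaving out cerebellar, pituitary, muscle and erythroid genes, up to 2 per list, and 32 fixed genes. Egr3, Npas4, Prph, Gata3, Slc17a7, Snap25, Tubb3, Nefl, Ivl, Grm4, En2, Gabrd, Sez6l and Cnpy1 were named after their values were seen. Promoters are from a RefSeq table of GRCm38.p6.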

Additional observations from a re-analysis of the deposited data

Results flagged for a closer look

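Khdrbs3, an RNA-binding protein of the STAR family, was the gene whose noise effect differed between night and day in ADX mice: its interaction there was 0.601 (SE 0.086, adjusted p = 0.0103, edgeR), and it passed in 15 of 20 fits, with adjusted p-values from 3.45e-05 to 0.249. In sham-operated mice its interaction was -0.0909 (SE 0.0863). The difference between the 2 was -0.692 (adjusted p = 0.0973), which passed in 4 of 31 fits.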

How the results depend on the processing

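No gene passed the test of the interaction under RLE factors, without the filter, with only the libraries compared, with a replicate block, or with any library or the pair with cerebellar transcripts left out (0 genes each, with 887 to 1560 at an unadjusted p below 0.05 when 1 library was left out). DESeq2 called 20 and limma voom 9. The labels do not say that a letter marks a shared batch, and libraries were not treated as paired, since deviations of same-letter libraries correlated above 0.1 in 10 of 18 pairs and not in all. The data hint at a shared letter effect: these correlations ran from 0.019 to 0.41 (median 0.152), and 11 of 12 libraries correlated best with their own letter. Those of different letters had a median of -0.0985, with 3 of 36 above 0.1. Deviations from group means sum to 0 within a group, so positive same-letter values push different-letter values below 0. The replicate block gave 0 genes for the interaction. For the mean noise effect it gave 162 in all, as without it, but 135 rose and 27 fell against 140 and 22. The mean noise effect gave 295 genes by DESeq2 and 264 by limma voom, the day effect 123 by DESeq2, 22 with only the libraries compared, 27 without the pair and 23 to 55 with 1 library left out. The night effect gave 210 by DESeq2, 254 by limma voom and 78 to 141 with 1 library left out. The ADX interaction gave 24 by DESeq2, 0 with only the libraries compared and 0 to 36 with 1 library left out. The difference of the interactions gave 197 by DESeq2, 574 by limma voom and 0 to 554 with 1 library left out. Of 68 genes followed, 60 kept their sign in every setting that tested them and 19 passed by DESeq2 or limma voom. Reversed without the pair were Pdk4 (-0.0293), Rab17 (0.0464), Klhdc7a (0.00963) and Prph (-0.134), and by limma voom Per2 (0.0787) and Prph (-0.208). With 1 library left out the value ran from -0.165 to 0.197 for Pdk4, -0.292 to 0.0637 for Per1, -0.224 to 0.372 for Per2, -0.272 to 0.0292 for Tsc22d3, -0.238 to 0.0931 for Klhdc7a, -0.57 to 1.13 for Prph and -0.199 to 0.0998 for Npas4. The cause was not tested in any of these. Depth limits genes under about 1 CPM, such as Cxcl1 and Fosl1.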
